A study of Homo sapiens with 4 samples.

Results

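Of the type II cadherins, CDH6, CDH7, CDH8, CDH9, CDH10, CDH11, CDH12, CDH18, CDH19 and CDH20 were followed through Hi-C contact maps. The cells were IMR90, a lung fibroblast line. In Hi-C, crosslinked chromatin is digested, here with HindIII, neighbouring ends are joined, and sequencing of the joined fragments shows which parts of the genome touched. The cells carried ER:HRAS G12V, an oncogenic RAS fused to an oestrogen receptor domain that 4OHT switches on, in the vector pLNCX2. The 2 samples of Grow-shA1 (growing cells) and the 2 of OIS-shA1 (100 nM 4OHT for 6 days, oncogene-induced senescence) also carried shHMGA1, a hairpin against the AT-hook protein HMGA1, in pMSCV miR. The maps of growing cells (Grow) and of senescent cells (OIS) without the hairpin were built from older libraries of the laboratory, which are not among the 4 samples here. Wherever a shA1 map is set against one without shA1, the hairpin and the data set therefore cannot be told apart. Each condition had 1 map, with replicates pooled, so differences have no replicate error and no test. HMGA1 levels were not analysed here.

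The window of a member was its gene body and 5 bins of about 200 kb on each side. The 10 windows held 114 bins, out of 14310 on chromosome X and the autosomes, and all 114 passed the filter on listed pairs. The members were chosen by family and by measured values of these same maps, since bins at CDH8 had stood out for the fall of distal contact with B (inactive) bins in OIS minus Grow. The values below therefore describe the members and support nothing about their choice. A score is the deposited contact of a pair of bins relative to the mean at the same distance, on a scale of unstated base, so differences are given in score units and not as folds. Pairs over 2 Mb apart were distal and closer pairs local.

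Type II cadherins are calcium-dependent adhesion proteins with extracellular cadherin repeats, and their cytoplasmic tails bind catenins that link them to actin. Adhesion works through swapping of a strand of the outermost repeat between facing cells, in which conserved tryptophan residues dock into the partner. Most members are best known from neurons, where combinations of them sort cells and match synaptic partners. CDH11, or OB-cadherin, is the member typical of mesenchymal cells and fibroblasts, CDH6 is known from kidney and CDH19 from the Schwann cell lineage. Expression was not analysed here.

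CDH18, CDH12, CDH10 and CDH9 lie side by side on chromosome 5, with windows from position 18399283 to 28198633 of GRCh37. CDH6 follows on the same arm, CDH8 and CDH11 lie on the long arm of chromosome 16, and CDH20, CDH7 and CDH19 on that of chromosome 18. The windows are not independent, because CDH18 and CDH12 share 5 bins, CDH12 and CDH10 share 3, and CDH7 and CDH19 share 8. CDH18 and CDH12 are the longest genes, at 1105 and 1103 kb, and CDH19 is the shortest at 103.1 kb. Seen against the label of gene deserts, 8 of 10 windows were gene-poor, meaning that at least 50% of their bins had at most 2 protein-coding gene starts among the 11 bins around them. CDH6 and CDH20 were not. The CDH6 window held 6 gene starts and that of CDH20 held 8, including MC4R, the melanocortin receptor of appetite control, and TNFRSF11A, the receptor of osteoclast formation. The windows of CDH18, CDH9, CDH8 and CDH11 held no gene start but their own.

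GC content was between 34.6% (CDH7) and 39.5% (CDH6), against a median of 43.3% over the windows of 18349 protein-coding genes and of 36.2% over the 130 gene-poor ones. All 10 windows were in the B (inactive) compartment of the Grow map by mean compartment score. Of the kept bins, 60.5% on chromosome 5, 61.4% on chromosome 16 and 58.9% on chromosome 18 were B. The share of all gene windows is not given here. CDH7 had the lowest score, -0.901, and CDH6 lay next to the border at -0.0146.

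The promoters differed widely in CG content. The 300 bases around the start of the canonical transcript (250 before, 50 after) are printed for CDH8 and CDH7, the members with the lowest distal differences in OIS minus Grow, and for CDH9 and CDH19, whose windows have similarly low GC content but whose promoters hold few CG dinucleotides. Capitals mark CG, read in GRCh37 at GENCODE transcript starts.
CDH8, chr16:62070293-62070592, - strand: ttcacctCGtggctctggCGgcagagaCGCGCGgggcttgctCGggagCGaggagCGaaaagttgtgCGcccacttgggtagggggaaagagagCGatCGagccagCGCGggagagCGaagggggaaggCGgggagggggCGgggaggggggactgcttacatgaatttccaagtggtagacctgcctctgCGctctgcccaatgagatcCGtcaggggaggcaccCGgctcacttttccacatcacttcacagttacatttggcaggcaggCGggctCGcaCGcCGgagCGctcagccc
CDH7, chr18:63417998-63418297, + strand: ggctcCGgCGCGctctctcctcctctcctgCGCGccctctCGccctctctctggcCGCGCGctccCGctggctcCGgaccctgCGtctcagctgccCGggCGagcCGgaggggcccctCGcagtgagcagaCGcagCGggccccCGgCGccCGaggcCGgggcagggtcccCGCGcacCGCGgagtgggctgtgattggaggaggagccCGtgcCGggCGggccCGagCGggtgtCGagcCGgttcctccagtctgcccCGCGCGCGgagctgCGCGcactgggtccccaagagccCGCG
CDH9, chr5:27038644-27038943, - strand: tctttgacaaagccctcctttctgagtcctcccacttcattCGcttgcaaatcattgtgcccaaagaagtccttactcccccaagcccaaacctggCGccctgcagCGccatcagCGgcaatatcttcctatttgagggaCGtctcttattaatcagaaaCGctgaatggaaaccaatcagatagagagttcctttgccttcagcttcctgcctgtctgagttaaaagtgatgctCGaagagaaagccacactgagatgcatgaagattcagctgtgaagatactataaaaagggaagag
CDH19, chr18:64271278-64271577, - strand: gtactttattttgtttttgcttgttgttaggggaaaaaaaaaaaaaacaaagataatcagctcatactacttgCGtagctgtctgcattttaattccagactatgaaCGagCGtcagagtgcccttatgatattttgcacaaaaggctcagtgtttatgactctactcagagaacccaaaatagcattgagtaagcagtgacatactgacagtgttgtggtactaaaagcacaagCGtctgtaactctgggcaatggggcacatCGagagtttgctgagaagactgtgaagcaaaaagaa
CDH7 held 41 CG dinucleotides, CDH8 24, CDH9 7 and CDH19 5 (CDH6 had the fewest, 4), against a median of 23 over 19811 promoters, of which 98.24% held at least 1. The letters TATAAA, searched on the strand of the gene, were in the CDH9 promoter alone among the 10 and in 7.04% of all promoters. A bin of 200 kb does not resolve a promoter, so no contact value belongs to these sequences. All 14287 inner bin edges lay at the HindIII site AAGCTT, in capitals below for the first bin edge beyond the 3' end of CDH8.
Bin edge, chr16:61602343-61602382, + strand: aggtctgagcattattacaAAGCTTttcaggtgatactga

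Over the distal pairs of all kept bins, Grow listed 89.4%, Grow-shA1 84.2%, OIS 80.4% and OIS-shA1 78.6%. Local pairs were listed almost completely, at 99.9% to 100.0%. Means were taken over pairs listed in all 4 maps. Read counts per pair are not in the files used here, so counting error could not be computed.

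Local contact was lower in OIS than in Grow at every member. At CDH18 the local mean score was 0.323 in Grow, 0.225 in Grow-shA1, -0.522 in OIS and -0.0542 in OIS-shA1. At CDH8 it was 1.22 in Grow, 1.13 in Grow-shA1, 0.52 in OIS and 0.905 in OIS-shA1. At CDH7 it was 0.511, 0.55, -0.269 and 0.221 in the same order. In these 3 windows, and in those of CDH12, CDH10, CDH9 and CDH19, the OIS map was lowest and OIS-shA1 lay between it and the growing maps. CDH12 scored 0.468 in Grow, 0.374 in Grow-shA1, -0.293 in OIS and 0.163 in OIS-shA1. CDH10 scored 0.676, 0.619, -0.105 and 0.3 in that order, and CDH9 0.744, 0.66, 0.00129 and 0.35. CDH19 scored 0.476, 0.46, -0.179 and 0.214. The gap between both senescent maps was therefore wide in the gene-poor windows. CDH11, the fibroblast member, was the exception among these, with 0.858 in Grow, 0.78 in Grow-shA1, 0.351 in OIS and 0.424 in OIS-shA1. At CDH6 and CDH20 all 4 maps were below 0, and at CDH20 OIS-shA1 (-0.545) was no higher than OIS (-0.523).

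The difference OIS minus Grow in local contact ran from -0.845 at CDH18 to -0.199 at CDH20, with a median of -0.719. All 10 members were lower by at least 0.1 score units, as were 43.0% of all gene windows and 83.1% of the gene-poor ones. The count is thus close to that of gene-poor windows, while the medians were -0.0583 over all and -0.419 over gene-poor windows. No local pair of CDH18, CDH12, CDH10, CDH9, CDH8 or CDH7 had a higher score in OIS than in Grow. At CDH6 30.2% and at CDH20 40.3% of local pairs did, counting pairs inside a window from both ends.

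With the hairpin in both maps, OIS-shA1 minus Grow-shA1, the local median was -0.282 and the members lay between -0.357 and -0.21. Again 10 of 10 passed 0.1, beside 45.6% of all and 55.4% of gene-poor windows. OIS-shA1 was higher than OIS by at least 0.1 at 7 members (16.4% of all windows, 69.2% of gene-poor ones), from 0.349 at CDH9 to 0.49 at CDH7. CDH6 (0.0811), CDH11 (0.0725) and CDH20 (-0.0216) did not pass. The OIS map enters both this comparison and OIS minus Grow, so the values are not independent. Grow-shA1 differed from Grow by less than 0.1 at all 10 members (19% of all windows and 26.2% of gene-poor ones were lower by that much), so in growing cells the local levels with and without the hairpin lay close together. The senescence difference with the hairpin minus that without it was above 0 at 9 members and reached 0.1 at all 9, beside 20.4% of all windows and 79.2% of gene-poor ones. Its median was 0.442, and CDH20 was the exception with -0.0292.

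**Figure D1:**
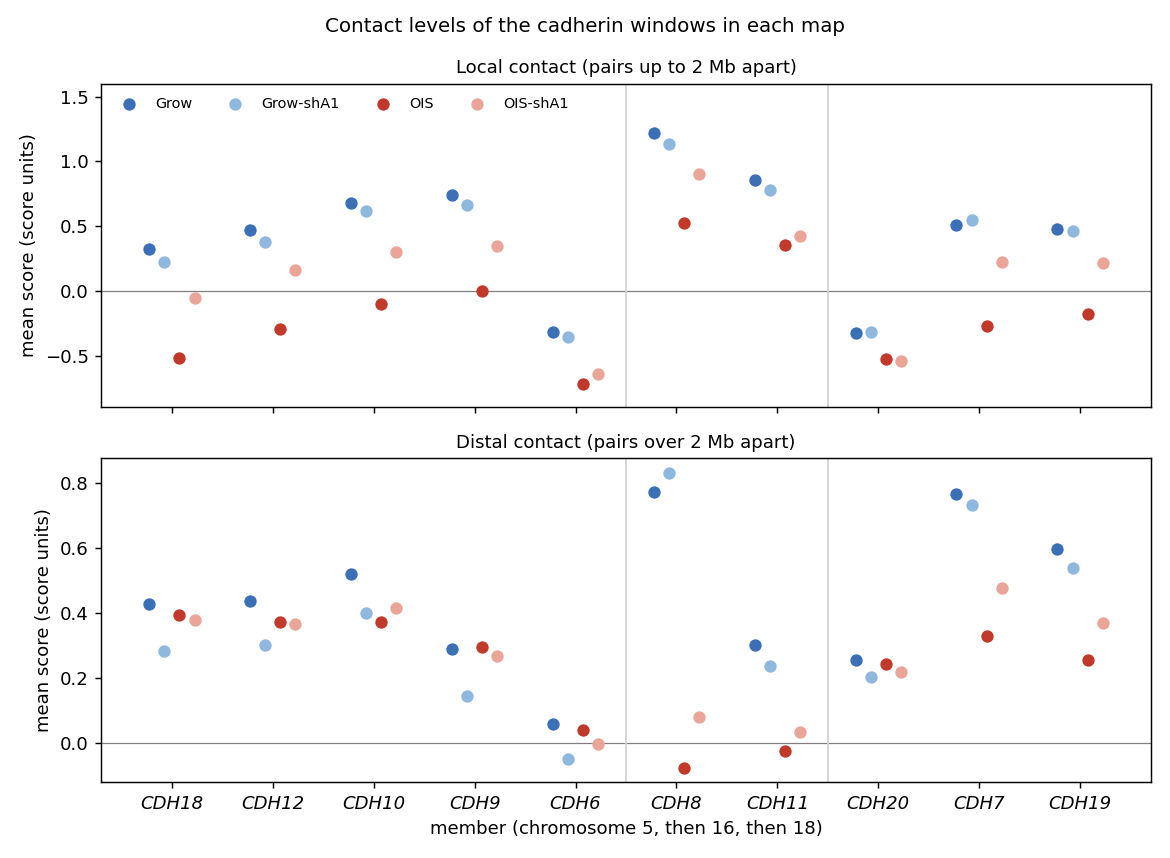
Mean score (score units) of local pairs (top) and distal pairs (bottom) for each cadherin window, 1 point per map, colours as in the legend, with vertical lines between chromosomes 5, 16 and 18. Local scores were lower in OIS than in Grow at all 10 members, and distal scores dropped most at CDH8, from 0.772 to -0.0762.

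Distal contact differed widely between the members. CDH8, a neuronal cadherin, had the lowest difference of all 18349 windows in OIS minus Grow, -0.848, the contrast by which it was chosen. Its distal mean was 0.772 in Grow, 0.829 in Grow-shA1, -0.0762 in OIS and 0.0779 in OIS-shA1, so both senescent maps were below both growing maps. Over its 2782 pairs of bins the difference had an SD of 0.58, a spread over pairs and not over replicates. CDH7 went from 0.763 in Grow to 0.327 in OIS, CDH19 from 0.595 to 0.253 and CDH11 from 0.299 to -0.0247. CDH10 differed by -0.149. CDH12 (-0.0632), CDH18 (-0.0335), CDH6 (-0.0173), CDH20 (-0.0123) and CDH9 (0.0059) differed by less than 0.1.

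Thus 5 of 10 members were lower by at least 0.1 and 0 were higher, with a median of -0.106. The same was true of 37.3% of all gene windows and 28.5% of gene-poor ones, so the count is near the background. The median depended on which pairs entered. With unlisted pairs as 0 it was -0.0152, with 6 members below 0. Over all listed pairs of each map it was -0.00426, with 5 below 0, against 9 in the main setting. In both settings 4 members were lower by at least 0.1. By size, CDH7 was at the 0.0654th percentile of all gene windows, CDH19 at 0.403 and CDH11 at 0.649, while CDH9 was at 84.8. Most gene windows were thus below 0 too, since 78.7% lay below CDH20 at -0.0123. In CDH8 6.58% of distal pairs had a higher score in OIS than in Grow. Over A and B partners together, CDH8 was lower at each distance. It was at -0.803 at 2 to 5 Mb, -1.0 at 5 to 10 Mb, -0.91 at 10 to 20 Mb, -0.756 at 20 to 50 Mb and -0.712 beyond 50 Mb. With B bins alone it was at -0.607, -1.0, -0.856, -0.754 and -0.711. Pairs of B bins over the whole of chromosome 16 were also lower in OIS, with differences of -0.136, -0.333, -0.385, -0.267 and -0.248 over these ranges. CDH11, on the same chromosome, was at -0.3975, -0.283, -0.388, -0.326 and -0.323 with B bins, near the chromosome values beyond 5 Mb.

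The chromosome 5 members had distal levels above 0 in all 4 maps, apart from CDH6. CDH18 scored 0.425 in Grow, 0.283 in Grow-shA1, 0.392 in OIS and 0.378 in OIS-shA1, and CDH9 0.289, 0.143, 0.295 and 0.267. CDH10 was lower in OIS up to 50 Mb, with -0.31, -0.592, -0.591 and -0.338 over the ranges above, and higher beyond, with 0.36. CDH6, next to the compartment border, stayed between -0.049 and 0.0568, and CDH20 between 0.201 and 0.254.

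With the hairpin in both maps, 4 members were lower by at least 0.1 (33.8% of all windows, 20% of gene-poor ones): CDH8 (-0.751), CDH7 (-0.255), CDH11 (-0.202) and CDH19 (-0.168). CDH9 was higher by 0.124 (2.23% and 19.2% of windows were higher). OIS-shA1 was above OIS by at least 0.1 at CDH8 (0.154), CDH7 (0.149) and CDH19 (0.116), beside 1.16% of all windows and 6.92% of gene-poor ones. Grow-shA1 was below Grow by at least 0.1 at the 5 members of chromosome 5, from -0.147 at CDH9 to -0.106 at CDH6, and at none of chromosomes 16 and 18. This was so for 5.2% of all windows and 35.4% of gene-poor ones. When each map was centred at each distance, 0 members were lower in this comparison.

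The 2 senescence differences can be set against each other in each window. The difference with the hairpin minus that without it was above 0 in distal contact at all 10 members, from 0.0286 at CDH20 to 0.181 at CDH7. Its median was also above 0 over all gene windows (0.0137) and over gene-poor ones (0.0393). At 7 members it reached 0.1, as at 3.17% of all windows and 30% of gene-poor ones.

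Distal partners were divided by the compartment of the partner bin in Grow. CDH8 scored -0.487 with A bins in Grow, -0.567 in Grow-shA1, -1.52 in OIS and -1.22 in OIS-shA1. CDH10 scored -0.652, -0.7, -1.28 and -0.973, so both cadherins, already depleted of A contact in growing cells, had less of it in OIS. With A (active) bins, 8 members were lower in OIS than in Grow by at least 0.1 (20.2% of all windows, 67.7% of gene-poor ones). CDH8 was at -1.03, CDH7 at -0.698, CDH10 at -0.624 and CDH11, the fibroblast cadherin, at -0.275. CDH20 was higher by 0.134 and CDH6 by 0.0517. With the hairpin in both maps 7 were lower by at least 0.1 (15.5% and 47.7% of windows), with CDH8 at -0.657 and CDH10 at -0.273. OIS-shA1 was above OIS by at least 0.1 at 7 members (6.03% and 43.1%), up to 0.352 at CDH7, and CDH6 was above it by 0.0238.

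Fewer A pairs were listed in OIS as well. For CDH10 63.3% of possible A pairs were listed in Grow and 41.8% in OIS, and for CDH8 80.6% and 45.8%. Only 23.3% of the A pairs of CDH10 and 32.3% of those of CDH8 had a value in all 4 maps, and the means rest on those.

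With B bins, the means over all distal distances together differed between chromosomes. CDH8 scored 1.08 in Grow, 1.18 in Grow-shA1, 0.281 in OIS and 0.401 in OIS-shA1. CDH7 kept a high B level, with 1.32, 1.27, 0.99 and 1.06. CDH8 (-0.803), CDH11 (-0.348), CDH7 (-0.33), CDH19 (-0.3) and CDH20 (-0.102) were lower in OIS by at least 0.1 (61.0% of all windows, 20.8% of gene-poor ones), and CDH9 was higher by 0.147 (3.05% and 27.7%). CDH18 (0.0581), CDH12 (0.0216), CDH10 (-0.0355) and CDH6 (-0.0654) differed by less than 0.1.

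**Figure D2:**
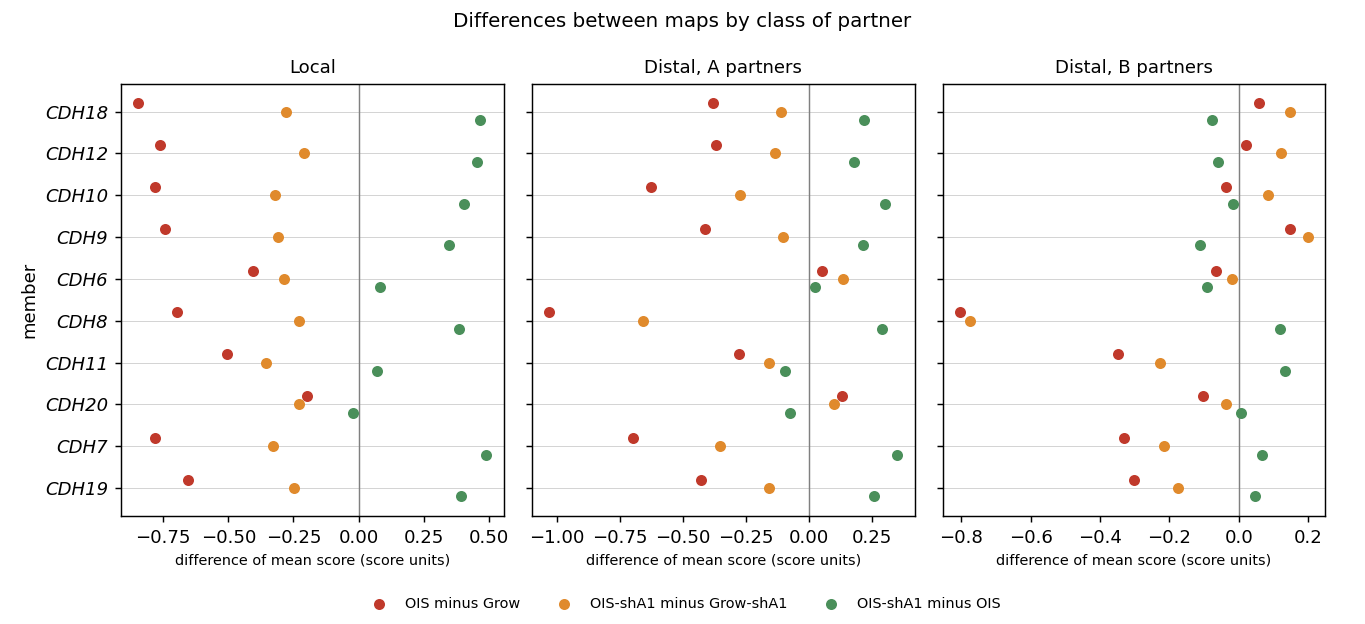
Differences of mean score (score units) for each member in local pairs and in distal pairs with A or B partner bins, with 1 colour per comparison. Local and A differences lie left of 0 in OIS minus Grow for most members. B differences, over all distal distances together, lie left of 0 chiefly on chromosomes 16 and 18.

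The chromosome arm of the partner divided the chromosome 5 members further. With their own arm CDH18, CDH12, CDH10 and CDH9 were lower in OIS than in Grow, by -0.327, -0.408, -0.563 and -0.3. With the long arm they were higher, by 0.209, 0.219, 0.205 and 0.242. OIS-shA1 minus OIS had the opposite sign in both classes: at CDH10 0.276 on the same arm and -0.153 on the other. On the other arm, the senescence difference with the hairpin was 0.221 at CDH10 and 0.193 at CDH9. CDH8 was lower on both arms, -0.922 and -0.707, as were CDH11, CDH7 and CDH19. Distal means of the chromosome 5 members thus average differences of opposite sign. Arm and distance go together here and were not separated. Pairs of B bins over the whole of chromosome 5 were also lower in OIS from 20 to 50 Mb (-0.122). Beyond 50 Mb they were higher (0.126). With same-arm pairs only, 9 of 10 members were lower by at least 0.1.

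**Figure D3:**
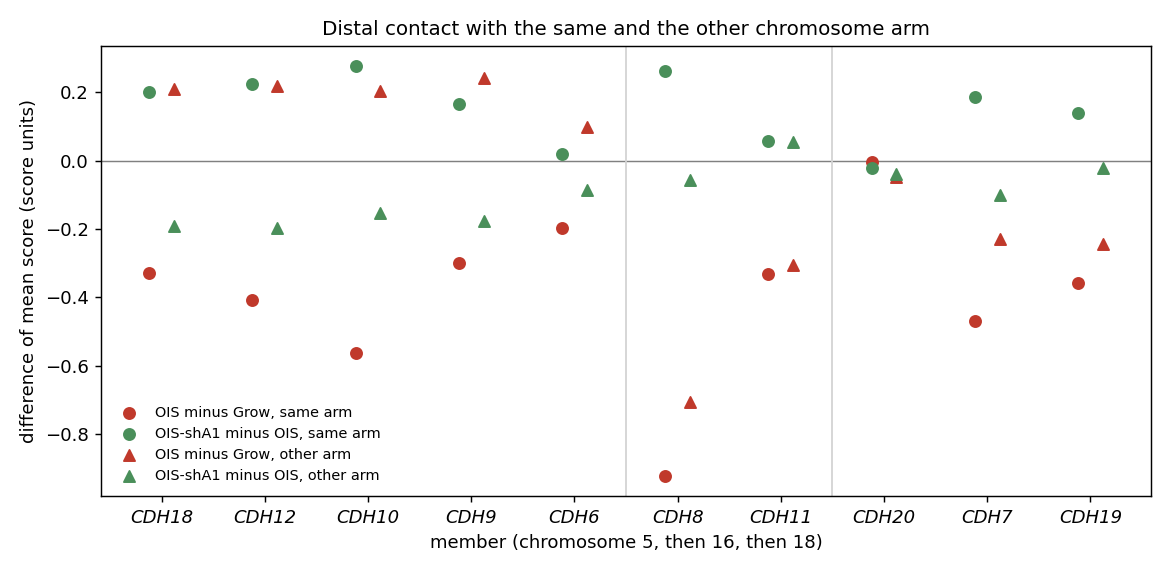
Difference of mean distal score (score units) with partner bins on the same arm (circles) or the other arm (triangles), in OIS minus Grow (red) and OIS-shA1 minus OIS (green). The 5 chromosome 5 members are below 0 with their own arm and above 0 with the other arm in OIS minus Grow, and CDH8 is below 0 with both.

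Contact with other gene-poor blocks was followed for the 16 runs of at least 5 gene-poor bins on these chromosomes that lie outside the windows. It was higher in OIS than in Grow at 8 members and lower at CDH8 (-0.581) and CDH11 (-0.297), with a median of 0.227. Contact of the blocks with each other was also mostly higher. Of their 51 pairs 15.7% were below 0, and the median was 0.303. Chromosome 16 had a single such block, at the splicing regulator RBFOX1, on the other arm. CDH9 went from 0.701 in Grow to 1.16 in OIS, with 0.519 in Grow-shA1 and 0.974 in OIS-shA1. With shA1 in both maps the median was 0.378, and OIS-shA1 was below OIS at 8 of 10 members, with a median of -0.114. The pairs of blocks had medians of 0.2358 and -0.1585 in these comparisons, and 76.5% were below 0 in the latter. With blocks of the same arm or within 50 Mb, which 8 members have, the median of OIS-shA1 minus OIS was 0.0837 and 2 members were below 0.

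The higher contact of the chromosome 5 members was with blocks of the long arm. All 7 measured there were higher in OIS than in Grow for CDH18, CDH12, CDH10 and CDH9, with medians of 0.671, 0.689, 0.721 and 0.58, and 6 of 7 for CDH6. With the 3 measured blocks of the short arm 1 or 2 were higher. Under the same limits the median of OIS minus Grow over the 8 members was -0.0798. The highest difference of CDH18, CDH12 and CDH9 was with the block of FAM174A and ST8SIA4, a polysialyltransferase (chr5:99400220-100600888). For CDH9 its score was 0.569 in Grow, 0.237 in Grow-shA1, 1.53 in OIS and 0.969 in OIS-shA1. CDH10 had its highest difference with a block without coding genes (0.873) and CDH6 with the block of EFNA5, an ephrin ligand (0.677).

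The lowest differences of CDH18, CDH12, CDH10 and CDH9 were all with the block of IRX1, a homeobox gene near the end of the short arm. At CDH10 its score was 1.92 in Grow, 2.21 in Grow-shA1, 1.05 in OIS and 1.04 in OIS-shA1. OIS-shA1 minus Grow-shA1 was -1.18 there, and -0.866 without the hairpin. CDH6 had its lowest difference with the block between it and CDH9, -1.4. On chromosome 18 CDH20, CDH7 and CDH19 all had their highest difference with the block of CDH2, N-cadherin (0.625, 0.476 and 0.718), and their lowest with that of DCC, a netrin receptor (-0.288, -0.448 and -0.497).

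The members on the same chromosome formed 13 pairs of windows with distal pairs of bins; CDH7 and CDH19 lie too close. Contact was lower in OIS than in Grow in 10 of 13, with a median of -0.29. These pairs reuse the same windows and are not independent. Of 51 pairs of other gene-poor blocks, which lie farther apart, 15.7% were lower, and their median was 0.303. At closer range, all pairs of B bins on chromosome 5 were lower too, by -0.11 at 2 to 5 Mb and -0.113 at 5 to 10 Mb. CDH8 with CDH11 scored 0.785 in Grow, 0.677 in Grow-shA1, 0.217 in OIS and 0.708 in OIS-shA1. CDH10 with CDH6 scored 0.37, 0.238, -0.514 and -0.0382. CDH18 with CDH9 was an exception, with 1.04 in Grow, 0.491 in Grow-shA1, 1.61 in OIS and 1.64 in OIS-shA1. Over pairs of bins more than 5 Mb apart the median was 0.168, of opposite sign.

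OIS-shA1 was above OIS in 13 of 13 pairs, with a median of 0.244. Of the block pairs, which lie farther apart, 76.5% were below 0. For all pairs of B bins on chromosome 5 this difference changed sign with distance. It was 0.101 at 2 to 5 Mb, 0.04635 at 5 to 10 Mb and -0.139 beyond 50 Mb. Grow-shA1 was below Grow in 12 of 13 pairs, with a median of -0.268, and 78.4% of the block pairs were also below 0, with a median of -0.125. The senescence difference with the hairpin had a median of 0.217, with 3 of 13 pairs below 0. After division by the SD at the same distance this median was 0.0126, with 6 of 13 below 0. Without that division, the difference with the hairpin exceeded that without it in 13 of 13 pairs, by a median of 0.563. The excess ran from 0.122 (CDH20 with CDH19) to 0.666 (CDH18 with CDH12). Both a lower Grow-shA1 and a higher OIS-shA1 enter this excess. For all pairs of B bins on chromosome 5, the same quantity was 0.15 between 2 and 5 Mb and 0.0705 in the next range. The block pairs had a median of -0.0338.

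**Figure D4:**
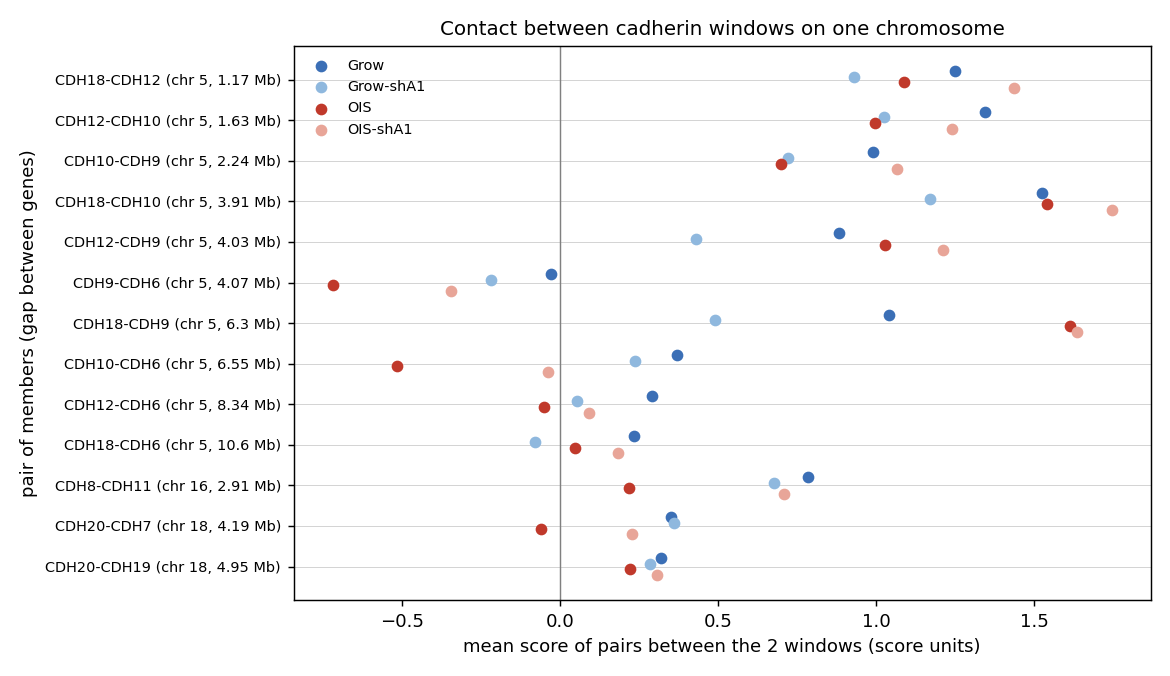
Mean score (score units) of the pairs of bins between 2 cadherin windows, 1 point per map, ordered by chromosome and by the gap between the genes. OIS-shA1 lies to the right of OIS in all 13 pairs, and pairs with CDH6 lie lowest on chromosome 5.

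Compartment scores, scaled within each map, kept their sign at 9 of 10 members in the 4 maps. The share of all gene windows that did so is not given here, so the count has no background. CDH6 was at -0.0146 in Grow, -0.0205 in Grow-shA1, 0.0427 in OIS and 0.0796 in OIS-shA1. CDH11 came close to the border, with -0.352 in Grow, -0.401 in Grow-shA1, -0.021 in OIS and -0.178 in OIS-shA1. CDH8 was at -0.842 in Grow and -0.594 in OIS. CDH18, CDH12, CDH10 and CDH9 were lower in OIS than in Grow, with CDH10 at -0.652 and -0.709.

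The profiles by bin show how far the differences reached. Along the CDH8 window the distal difference OIS minus Grow was between -0.973 and -0.73 in all 13 bins. It was closer to 0 at the ends of the profile, at -0.10 on one side and -0.27 on the other. Around CDH10 the local difference lay between -0.89 and -0.60 in the bins outside its window and between -0.855 and -0.728 inside it.

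**Figure D5:**
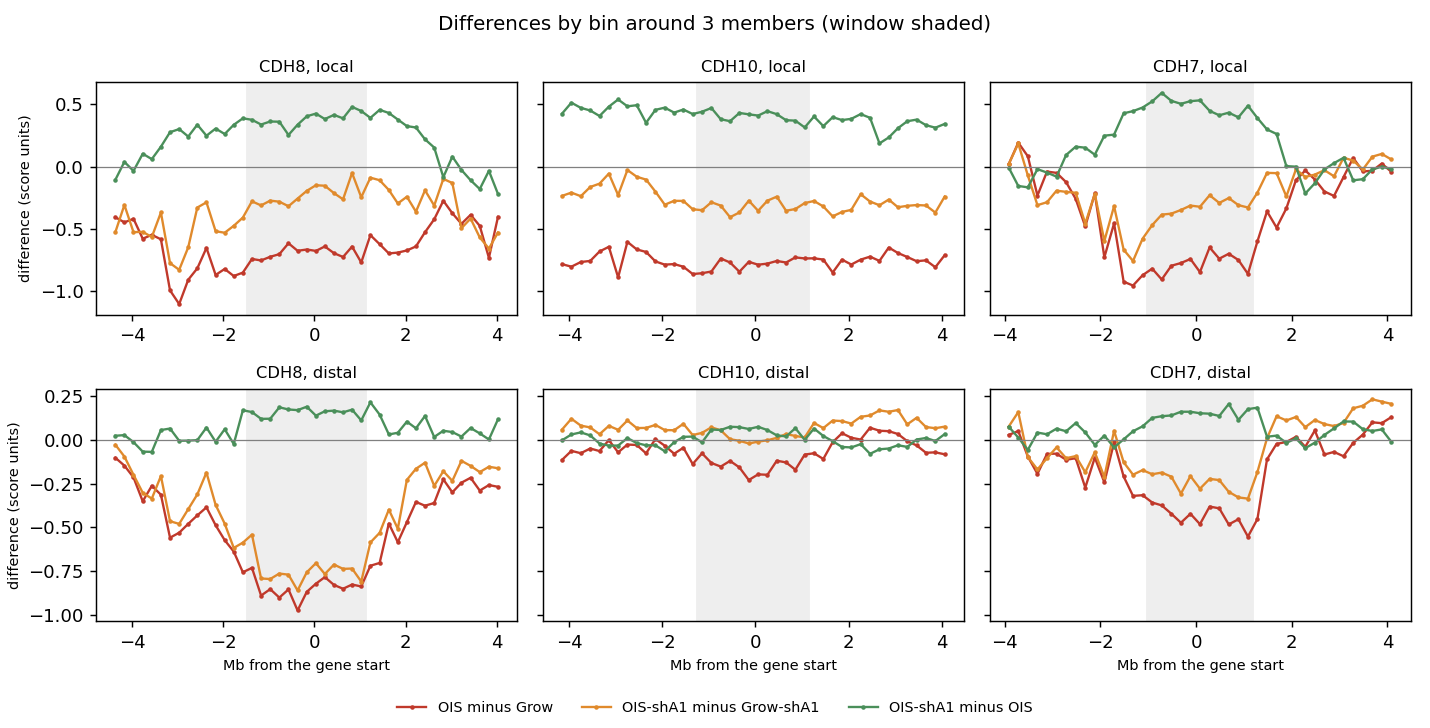
Differences by bin (score units) in local (top) and distal (bottom) contact around CDH8, CDH10 and CDH7, against distance in Mb from the gene start in the direction of the chromosome, with the window shaded and 1 colour per comparison. The distal trough of CDH8 covers its 13 window bins, and the local difference of CDH10 stays low beyond its window.

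Of 17 other cadherins, chosen as a list with earlier results known, 16 had a measured window (CDH15 did not). The members are only part of the type II family, and this list was not divided by cadherin type. CDH5, CDH22 and CDH24, with 46, 52 and 50 gene starts in their windows, were at -0.393, 0.156 and -0.045 in local OIS minus Grow. Their windows were lower in local contact by at least 0.1 in OIS minus Grow at 11, with a median of -0.327, beside 43.0% of all windows and their median of -0.0583. In distal contact 11 were lower by at least 0.1 and the median was -0.107, beside 37.3% of all windows and their median of -0.0725. The desmosomal cadherins DSC1 to DSG4 on chromosome 18 share their bins and are not independent. CDH2, in a gene-poor window, was at 0.0641 in distal and -0.326 in local contact, and CDH13, a cadherin anchored without a tail, at -0.327 and -0.157. CDH1, E-cadherin, was at -0.23 and 0.0176.

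Among 7 catenins, which bind cadherin tails, 4 were lower in local contact by at least 0.1, not far from the 43.0% of all windows, and CTNNB1, beta-catenin, was higher by 0.316. CTNNA2, a neuronal alpha-catenin, was at -0.529. In distal contact 6 of 7 catenins were below 0, but 1 was lower by at least 0.1, CTNNA3 at -0.221, beside 37.3% of all windows. Most gene windows were below 0 as well, since 78.7% lay below CDH20 at -0.0123.

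The genes with the most similar levels were found over 12 values, the local, distal A and distal B means in 4 maps, by Euclidean distance among 18255 genes. They were FAM174A for CDH18 (0.269), AC012414.1 for CDH12 (0.312), NOVA1 for CDH10 (0.28) and REG3G for CDH9 (0.35). TMEM14A was nearest to CDH6 (0.23), SLX4IP to CDH11 (0.397), TDP2 to CDH20 (0.244), SYT4 to CDH7 (0.629) and LINGO2 to CDH19 (0.321). CDH8 had the most distant neighbour, ZNF85 at 0.888, whose distal difference in OIS minus Grow was -0.296.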

How the data were processed

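Hi-C was measured in 4 samples of IMR90 cells, from Grow-shA1 (2) and OIS-shA1 (2). The authors used HiC-Pro and the hg19 build, filtered duplicates and artefacts, counted 200 kb bins, applied ICE balancing and a correction for distance, and the deposited value of each pair is a score. Bin coordinates, deposited with edges at HindIII sites, matched the GRCh37 chromosome lengths. Replicates are pooled into 1 map per condition, and depth was followed here only through the share of listed pairs. The paper reports fewer reads for OIS-shA1 than for Grow-shA1.

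Bins were kept when at least 50% of their pairs were listed in each map (13597 of 14310). Means were taken over pairs listed in all 4 maps with Python 3.11.15, numpy 2.4.6 and pandas 2.3.3. Compartments were the first principal component of each chromosome, oriented by gene starts (GENCODE 44 lifted to GRCh37). A difference of 0.1 score units was the mark for counts, and the same measure over all gene windows was the background. Named genes were the members, 2 lists, the most similar gene of each member and its blocks of largest rise and fall. Members and lists were chosen with earlier results of these data known. The measures were tested on simulated data. No test between conditions was possible.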

Additional observations from a re-analysis of the deposited data

How the results depend on the processing

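No paired analysis was possible because each map pools both replicates, which also allows no fit without a replicate. Of 337 alternative values under 17 settings, 302 kept within the spread over members or within 1.5 times the count, 30 moved, and 5 values of at least 0.1 in size turned sign. Among the 302 were 6 medians under 0.1 in size that also changed sign. The distal median of OIS-shA1 minus Grow-shA1 (0.0159) was -0.1299 from 2 to 50 Mb, -0.1299 on the same arm and -0.0309 with unlisted pairs at the lowest score. That of OIS-shA1 minus OIS (0.0195) was -0.00223 over 5 Mb and -0.00654 both without CDH8 and with CDH7 and CDH19 joined. The setting of unlisted pairs to the lowest score of the distance, and every alternative of local contact, were chosen after seeing the data. The unstated base of the score and the lower share of listed pairs in the senescent maps limit all values.

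Over 5 Mb, contact between members in OIS minus Grow was 0.168. From 2 to 50 Mb, contact with gene-poor blocks was -0.0798 in OIS minus Grow and 0.0837 in OIS-shA1 minus OIS, the distal median of OIS-shA1 minus OIS was 0.119, and the counts were 9 lower in OIS minus Grow, 0 higher in OIS-shA1 minus Grow-shA1 and 6 higher in OIS-shA1 minus OIS. On the same arm only, the blocks gave -0.0798 and 0.0837, the distal median of OIS-shA1 minus OIS was 0.176, and these counts were 9, 0 and 7, with 3 lower in Grow-shA1 minus Grow. In Grow-shA1 minus Grow, contact with blocks was -0.278 when divided by the SD, -0.112 when centred and -0.109 over all listed pairs of each map. Centring gave local medians of -0.1905 in OIS-shA1 minus Grow-shA1 and -0.0144 in Grow-shA1 minus Grow.

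Members higher in OIS-shA1 minus Grow-shA1 were 4 after division by the SD, 2 after centring, 0 with unlisted pairs as 0, 2 over all listed pairs, 3 with gene body bins alone, 0 with 10 bins on each side and 0 at the lowest score. Members lower in Grow-shA1 minus Grow were 0 after centring, with 1 higher, 0 with unlisted pairs as 0, 0 over all listed pairs and 1 at the lowest score. Members higher in OIS-shA1 minus OIS were 1 with unlisted pairs as 0 and 1 with 10 bins on each side. Members with a change of compartment sign were 0 with gene body bins alone and 2 after division by the SD. The cause of these shifts was not tested.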
